A study of Mus musculus with 2 samples.

Results

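The integrated stress response (ISR) is described here through 10 genes, the transcription factor genes Atf4, Ddit3 and Atf5 and the Atf4 targets Chac1, Asns, Trib3, Sesn2, Gdf15, Psat1 and Phgdh. They were taken by symbol from the 32285 genes of the count tables, and each was found. The data are counts of unique molecular identifiers (UMIs) in single hippocampal cells, captured with a 10x Genomics kit after papain digestion. One library came from WT C57BL6/J mice and another from GFAP-hGFAP (60TM) mice on that background, both at 7 weeks of age and with no treatment named. The 60TM line models Alexander disease, which mutations of GFAP, the intermediate filament protein of astrocytes, cause; its name gives human GFAP as the added gene, and the labels say nothing more of what drives it. Each genotype had 1 library from 3 mice, with no map from cells to mice, so no difference was tested and nothing below has a replicate check. After filtering, the WT library held 6086 cells with 57480919 UMIs and the 60TM library 7574 cells with 70610233 UMIs. Levels are UMIs of a gene scaled to 1000000 UMIs of a cell class (CPM), and the ratio is 60TM over WT. Brackets give 95% intervals that cover counting error only.

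The ISR is a shared answer to several kinds of cell stress. Kinases that sense amino acid shortage, misfolded protein in the endoplasmic reticulum, viral RNA or low heme phosphorylate the translation factor eIF2, which lowers protein synthesis as a whole but favours translation of Atf4. Atf4 then raises transcription of genes for amino acid synthesis, amino acid import and tRNA charging, and, with Ddit3 (CHOP), of genes of redox control and cell death. Because Atf4 is set largely by translation, its mRNA need not follow the activity of the protein.

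Atf4 and its partners of the C/EBP family bind an element with the core TGATGNAA, which was searched on both strands in RefSeq promoters of build GRCm38.p6, from 250 bases before to 50 bases after each start. All 10 genes were matched, and 3 of them, Chac1, Trib3 and Asns, held the core. Of all 32851 promoters 3.97% held it, and of 27025 genes 4.51%. The 3 windows are shown because they carry the element through which the response is read out; capitals mark the core, each sequence is written on its gene's strand, and for Chac1 and Trib3 the match is to the reverse complement TTNCATCA. The Chac1 window is chr2:119351004-119351101 on the plus strand, with the core starting 193 bases upstream of the RefSeq start. The Trib3 window is chr2:152344031-152344054 on the minus strand, with the core from base 15 of the RefSeq transcript but upstream of the GENCODE gene start. The Asns window is chr6:7693217-7693240 on the minus strand, with the core starting 23 bases upstream of the RefSeq start but inside a longer GENCODE transcript.
Chac1: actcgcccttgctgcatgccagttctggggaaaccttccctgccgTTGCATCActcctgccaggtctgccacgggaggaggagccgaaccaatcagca
Trib3: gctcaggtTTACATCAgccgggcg
Asns: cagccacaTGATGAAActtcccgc
A match is a description of letters and not evidence of binding. The ER stress response element, read by Atf6, was in 0 of the 10 and in 0.137% of all genes. The AP-1 site TGANTCA was in 1 of the 10, Ddit3, and in 8.97% of all genes.

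Cells were clustered without the 10 genes and without the pathway lists used below, and clusters were named from fixed markers. Astrocytes numbered 947 in WT and 1936 in 60TM, with median depths of 5968 and 7121 UMIs. All 7 of their markers were detected in both libraries, from 595 and 438 CPM for Gjb6 to 9176 and 6343 CPM for Slc1a2. The libraries differed in make-up: 64.2% of WT astrocytes lay in a cluster led by Slc6a11 and 3.7% in a cluster led by Lcn2, against 38.7% and 47.5% in 60TM. Gfap, which checks the labels, had 389 CPM among WT astrocytes against 1236 CPM among those of 60TM, though no source used here says if reads of the transgene count towards it. Lcn2, a marker of inflamed astrocytes, had 0 UMIs in WT astrocytes and 1165 CPM in 60TM astrocytes.

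A cluster of 76 cells, led by Ccl2, Gadd45b, Cxcl10 and Gdf15, came from the 60TM library with 0 WT cells, and it met 2 astrocyte markers where a name needed 3. It is therefore kept apart from the named astrocytes and called the Ccl2-led cluster. The summed level of its 7 astrocyte markers was 48.1% of that of the astrocyte class, and none of them was at 0. Markers of radial glia-like stem cells reached 10.9% of their own class. Those of microglia reached 1.68% and those of all other classes with a reference level 1.35% or less. Its median depth was 8646 UMIs and its median doublet score 0.0503, against 0.029 in 60TM astrocytes. Mitochondrial genes took 3.92% of its UMIs and ribosomal protein genes 7.34%, against 5.01% and 4.17% in 60TM astrocytes. A cluster that comes from 1 library may be a trait of that library.

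The transcription factor genes were widely detected across 14 classes, those that held 50 or more cells per library. Atf4 (ENSMUSG00000042406, GRCm38 chromosome 15, 80255184 to 80257541, plus strand), the central factor of the response, was highest in WT neurons at 130 CPM, above microglia at 91.2 CPM without overlap of their intervals. In 60TM, microglia led with 97.6 CPM, and the next class, pericytes with 85.2 CPM, overlapped with them. Atf4 in astrocytes reached 58.8 CPM in the WT library and 40.7 CPM in 60TM, for a ratio of 0.692 (0.606 to 0.791). Neurons, 81 cells in WT and 113 in 60TM, held 50.8 CPM in 60TM, a ratio of 0.39 (0.289 to 0.522), and in the other 12 classes the interval of the ratio included 1.

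Ddit3, the factor CHOP that is tied to cell death in prolonged stress, lies on chromosome 10 from 127290774 to 127296288 on the plus strand (ENSMUSG00000025408). A second row of the tables with the symbol Ddit3 (ENSMUSG00000116429) had 0 UMIs in the kept cells of both libraries. The 2 genes overlap, so Ddit3 counts are uncertain where reads fit both. In WT Ddit3 was highest in Cajal-Retzius cells, at 80.4 CPM, and astrocytes held 27.7 CPM in WT and 32.7 CPM in 60TM (ratio 1.18, 0.988 to 1.42). The ratio was 3.54 (1.47 to 9.08) in pericytes, from 9 and 16 UMIs, and 2.19 (1.1 to 4.74) in border macrophages, while neurons had 0.64 (0.425 to 0.962). The pericyte cluster held 74 and 57 cells. Another cluster, of 35 WT and 116 60TM cells, met 6 pericyte markers. It was left unnamed because a rival class also scored high in it, so it is not part of the pericyte values.

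Atf5, a factor linked to mitochondrial stress and under translational control like Atf4 (ENSMUSG00000038539, chromosome 7, 44812256 to 44816658, minus strand), had 16.3 CPM among WT astrocytes against 33 CPM among those of 60TM (ratio 2.02, 1.63 to 2.54). Microglia had 5.57 and 9.33 CPM (1.67, 1.27 to 2.23) and dividing cells 62.3 and 97.1 CPM (1.56, 1.15 to 2.14). Neurons went the other way, with 42.7 and 11.5 CPM (ratio 0.269, 0.144 to 0.483). Among the 3 factors Atf5 thus had the highest ratio in named astrocytes.

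Of the biosynthetic genes, Phgdh and Psat1 encode enzymes of the serine pathway, for which astrocytes are a known source in brain, and Asns encodes asparagine synthetase. Phgdh (ENSMUSG00000053398, chromosome 3, 98313170 to 98339990, minus strand) was highest in WT radial glia-like stem cells at 662 CPM and WT astrocytes at 594 CPM. Both were lower in 60TM, at 461 CPM (ratio 0.697, 0.639 to 0.761) and 450 CPM (0.758, 0.728 to 0.79), while the ratio was 1.3 (1.21 to 1.39) in microglia, 1.42 (1.15 to 1.77) in dividing cells and 1.09 (1.05 to 1.12) in oligodendrocytes. In 60TM, radial glia-like cells, astrocytes and oligodendrocytes (430 CPM) followed each other with overlapping intervals from one to the next. Psat1 (ENSMUSG00000024640, chromosome 19, 15904678 to 15947337, minus strand) was instead highest in oligodendrocytes, with 395 CPM in WT and 363 CPM in 60TM. Committed oligodendrocyte precursors followed with 273 and 246 CPM and astrocytes with 160 and 153 CPM, and in both libraries these 3 classes had intervals apart.

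Asns (ENSMUSG00000029752, chromosome 6, 7675169 to 7693254, minus strand) had another pattern. It was highest in WT neurons at 91.6 CPM, followed by oligodendrocyte precursor cells (OPCs) at 46.7 CPM and committed precursors at 41.4 CPM; the intervals of the latter 2 classes overlapped. WT astrocytes had 4 UMIs of Asns, 0.672 CPM, and 60TM astrocytes 191 UMIs, 12.7 CPM, a ratio of 18.8 (7.24 to 69.8). In OPCs the ratio was 1.09 (0.699 to 1.73), in committed precursors 1.18 (0.851 to 1.65) and in neurons 0.68 (0.503 to 0.92).

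The 4 other targets were scarce outside the Ccl2-led cluster. Chac1, which degrades glutathione (ENSMUSG00000027313, chromosome 2, 119351229 to 119354381, plus strand), had 1 UMI in WT and 43 in 60TM astrocytes, a ratio of 17 (2.89 to 685). Among the named classes Chac1 was highest in neurons in WT, at 9.16 CPM from 9 UMIs. In 60TM it was highest in dividing cells, at 5.57 CPM from 7 UMIs, with astrocytes next at 2.85 CPM and overlapping intervals. Trib3, a pseudokinase that restrains Atf4 and Ddit3 (ENSMUSG00000032715, chromosome 2, 152337422 to 152344032, minus strand), had 0 and 9 UMIs in astrocytes, at least 1.18-fold higher with WT set to the floor, 3 UMIs. Its highest level among the named classes was 9.74 CPM, from 12 UMIs, in 60TM endothelial cells.

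Sesn2, a stress-induced brake on mTORC1 signalling (ENSMUSG00000028893, chromosome 4, 132492032 to 132510501, minus strand), was at 3.7 and 6.89 CPM in astrocytes (ratio 1.86, 1.17 to 3.1). In neurons it was at 13.2 and 3.39 CPM, from 13 and 5 UMIs. Gdf15, a secreted hormone that acts on the hindbrain (ENSMUSG00000038508, chromosome 8, 70629393 to 70632456, minus strand), had 2 and 56 UMIs in astrocytes, a ratio of 11 (2.92 to 93.4). In microglia it had 0 and 35 UMIs, at least 8.3-fold higher, but 29 of the 35 came from 1 cell. Choroid plexus cells held 5.76 and 6.22 CPM of Gdf15, spread over 5 of 60 and 26 of 243 cells.

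**Figure D1:**
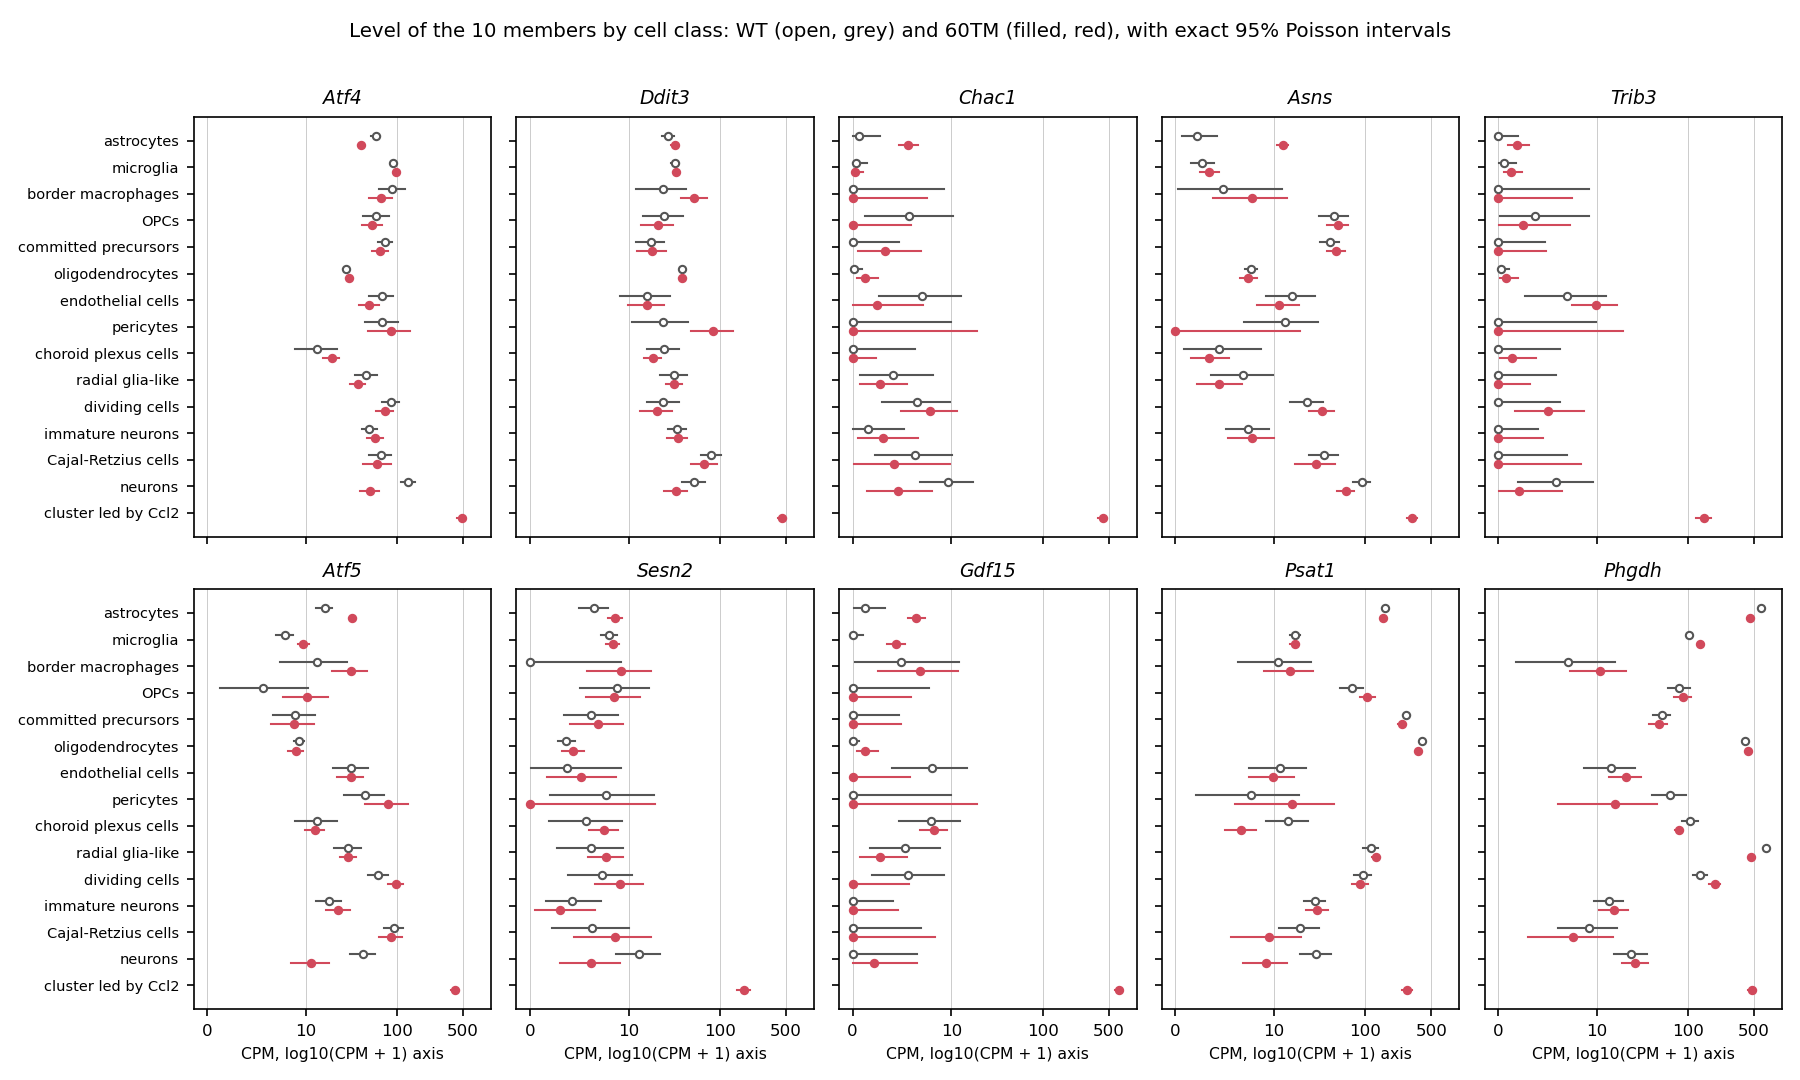
Level of each of the 10 genes in CPM, on a log10(CPM + 1) axis, in the 14 cell classes and the Ccl2-led cluster; open grey points are WT, filled red points 60TM, and lines exact 95% Poisson intervals. The 60TM-only cluster, in the bottom line of each panel, lies to the right of the classes for 8 of the genes, while Psat1 and Phgdh reach like levels in oligodendrocytes or astrocytes.

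In named astrocytes 9 of the 10 genes had at least 20 UMIs over both libraries, and 5 of these 9, Chac1, Asns, Gdf15, Atf5 and Sesn2, had a ratio of at least 1.5. Of the 5, Chac1, Gdf15 and Asns had 1, 2 and 4 WT UMIs and reached 20 UMIs only through 60TM. At such WT counts a total of 20 UMIs already gives a ratio above 1.5, so their calls were set by the filter. Of 13276 genes with 20 UMIs, 9.3% reached that ratio. None of the 9 was lower by as much, against 10.1% of all genes, but with at most 5% mitochondrial UMIs and at least 200 genes per cell 1 was, Atf4, at 0.65. Their median log2 ratio of CPM + 5 was 0.45, beside -0.06 over all genes. Of the immediate early and dissociation genes, which respond to handling of live cells among other things, 14 of 14 were higher in these astrocytes, with a summed level of 589 CPM in WT and 1909 CPM in 60TM. Their part in the members' ratios was not tested. Without the Lcn2-led cluster, of which over 90% of cells were 60TM, 2 of 7 members reached 1.5 (5.43% of all genes), 0 were lower (7.38%) and the median log2 ratio was -0.04. Asns then had 4 and 17 UMIs, Chac1 1 and 2, and Gdf15 2 and 5.

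The higher counts were also held by few astrocytes. Of the 1936 60TM astrocytes, 24 had a Chac1 UMI, 27 a Gdf15 UMI, 82 an Asns UMI and 8 a Trib3 UMI. The Lcn2-led cluster held 41 of the 43 Chac1 UMIs, 174 of the 191 Asns UMIs and 51 of the 56 Gdf15 UMIs. Within it, set against only 35 WT cells, 2 of 9 members were higher in 60TM and 4 lower. Of 11846 genes, 2160 were higher and 3173 lower there. In the Slc6a11-led cluster, which both libraries filled with 608 and 750 cells, Asns was at 1.03 and 1.3 CPM (ratio 1.27, 0.323 to 5.92) and Atf5 at 12.8 and 13.6 CPM (1.06, 0.73 to 1.55). In that cluster 1 of 6 members was higher (5.27% of all genes), Sesn2, and 0 were lower (6.19%). Atf4 was again below its WT level, at 60 and 42.7 CPM (0.711, 0.59 to 0.857), and so was Phgdh, at 511 and 389 CPM (0.761, 0.716 to 0.81).

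Beyond astrocytes, each class is given as members with 20 UMIs whose ratio passed 1.5 in either direction, with the share of all genes that did so in brackets. In microglia 2 of 8 were higher (6.33%), Atf5 and Gdf15, and 0 lower (5.08%). Gdf15 had 0 UMIs in WT microglia and 35 in 60TM, most of them in 1 cell, so it passed the filter only through 60TM. Border macrophages had 2 of 3 higher (12.1%), Ddit3 and Atf5, and 0 lower (11.4%). The oligodendrocyte lineage had none past 1.5. There, 0 of 5 were higher (6.53%) and 0 lower (8.55%) in OPCs, 0 of 6 higher (7.38%) and 0 lower (5.8%) in committed precursors, and 0 of 7 higher (6.2%) and 0 lower (4.8%) in oligodendrocytes. Endothelial cells had 0 of 6 higher (8.5%) and 0 lower (10.5%). Pericytes had 2 of 4 higher (17%), Ddit3 and Atf5, and 1 lower (18.2%), Phgdh. In choroid plexus cells 1 of 7 was higher (17.1%), Sesn2, and 1 lower (8.37%), Psat1. Radial glia-like cells had 1 of 6 higher (7.27%), Sesn2, and 0 lower (10.6%). Dividing cells had 1 of 6 higher (12%), Atf5, and 0 lower (11.4%). Immature neurons had 0 of 6 higher (5.36%) and 0 lower (5.58%), and Cajal-Retzius cells 0 of 5 higher (7.7%) and 1 lower (8.5%), Psat1. Neurons had 4 of 6 lower, Atf4, Atf5, Psat1 and Ddit3 (11.2%), and 0 higher (8.6%). The neurons are a small class, and their median depth was 3148 UMIs in WT and 4908 in 60TM. Their make-up differed as well: Gad2, a marker of inhibitory neurons, stood at 1147 and 418 CPM, Slc17a7, a marker of excitatory neurons, at 377 and 475 CPM, and the synaptic marker Syt1 at 2044 and 1264 CPM. Its part in the neuron ratios was not tested.

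The Ccl2-led cluster held 8 of the members, all but Psat1 and Phgdh, at levels above those of each of the 14 classes. Set beside the named 60TM astrocytes of the same library, Atf4 stood at 481 against 40.7 CPM, Ddit3 at 454 against 32.7 CPM and Atf5 at 411 against 33 CPM. The ratios of the 3 factor genes were 11.8 (10.4 to 13.4), 13.8 (12.1 to 15.9) and 12.5 (10.8 to 14.3). Among the targets Gdf15 reached 644 CPM against 3.71, a ratio of 173 (132 to 233), and Chac1 431 CPM against 2.85, a ratio of 151 (110 to 213). Trib3 stood at 147 CPM against 0.597 (246, 126 to 551), Asns at 311 CPM against 12.7 (24.6, 20.3 to 29.8) and Sesn2 at 180 CPM against 6.89 (26.1, 20.2 to 33.8). The serine enzymes differed less: Psat1 was at 277 against 153 CPM (1.81, 1.58 to 2.08) and Phgdh at 479 against 450 CPM (1.06, 0.961 to 1.18). Gdf15 and Chac1 were among the 10 genes that lead the cluster, so these values describe it and test nothing. In all, 9 of 10 members had a ratio of at least 1.5, beside 38.3% of all 12895 genes with 20 UMIs, and 0 were lower, beside 19.7%. Over WT astrocytes 9 of 10 were also higher, beside 34.6% of all genes, and 0 lower, beside 25%, with Atf4 at a ratio of 8.17, Ddit3 at 16.4, Atf5 at 25.2 and Asns at 463 (179 to 1712).

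Because the cluster is small, its weight in the 60TM library is shown by shares of UMIs. It made up 3.58% of the 2125 60TM cells that were named astrocytes or scored highest for astrocytes, and 5.27% of their UMIs. It held 92.6% of their Trib3 UMIs, 90.6% of those of Gdf15, 89.5% of Chac1, 58.6% of Sesn2 and 58.1% of Asns. Ddit3 had 43.4%, Atf5 40.8% and Atf4 39.3% of UMIs there, but Psat1 9.22% and Phgdh 5.65%. The UMIs were spread over the cluster, with Chac1 in 58 of 76 cells, Gdf15 in 46 and Trib3 in 34, although 3 cells held 209 of its 548 Gdf15 UMIs. With the cluster counted among the astrocytes, 7 of 10 genes had a 60TM over WT ratio of at least 1.5 (11.9% of all genes), 0 were lower (9.92%) and the median log2 ratio was 1.35. Atf4 then turned from lower to a ratio of 1.09, Ddit3 reached 1.99 and Trib3 at least 16.7-fold.

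**Figure D2:**
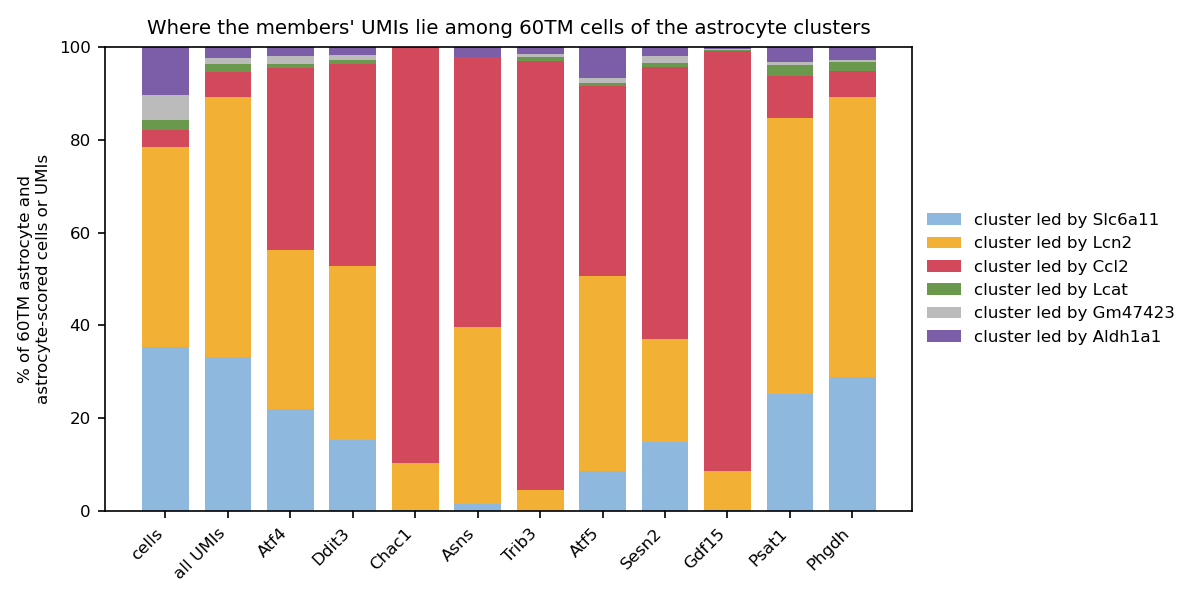
Shares in percent of 60TM cells, of all their UMIs and of the UMIs of each gene, by cluster, over the 2125 60TM cells that were named astrocytes or scored highest for astrocytes; each bar adds to 100. The Ccl2-led cluster (red) takes 3.58% of cells but 89.5% or more of the Chac1, Trib3 and Gdf15 UMIs, and 5.65% of those of Phgdh.

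To ask whether members were found in the same cells, each cell was thinned to 2000 UMIs and cells with fewer were left out (68 WT and 184 60TM astrocytes, and 11 cells of the Ccl2-led cluster). At least 3 of the 10 members were seen in 31 of 879 WT astrocytes, 3.53% (2.41 to 4.97), and in 71 of 1752 60TM astrocytes, 4.05% (3.18 to 5.08). In the Ccl2-led cluster 57 of 65 cells had 3 or more, 87.7% (77.2 to 94.5), with up to 9 in a cell. The share was 0.339% in WT and 1.18% in 60TM microglia. Without thinning the astrocyte shares were 28.9% in WT and 32.4% in 60TM. Phgdh was seen in 54.2% of thinned 60TM astrocytes and Psat1 in 23.6%, against 0.457% for Chac1 and 1.54% for Asns.

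Without Atf4, Psat1 and Phgdh, 2 or more of the other 7 genes were seen in 1 of 879 WT astrocytes, 0.114% (0.00288 to 0.632), in 20 of 1752 60TM astrocytes, 1.14% (0.699 to 1.76), and in 52 of 65 cells of the Ccl2-led cluster, 80% (68.2 to 88.9). In 60TM microglia that share was 0.367%. The 4 named 60TM astrocytes with 5 or more of the 10 members all lay in the Lcn2-led cluster.

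**Figure D3:**
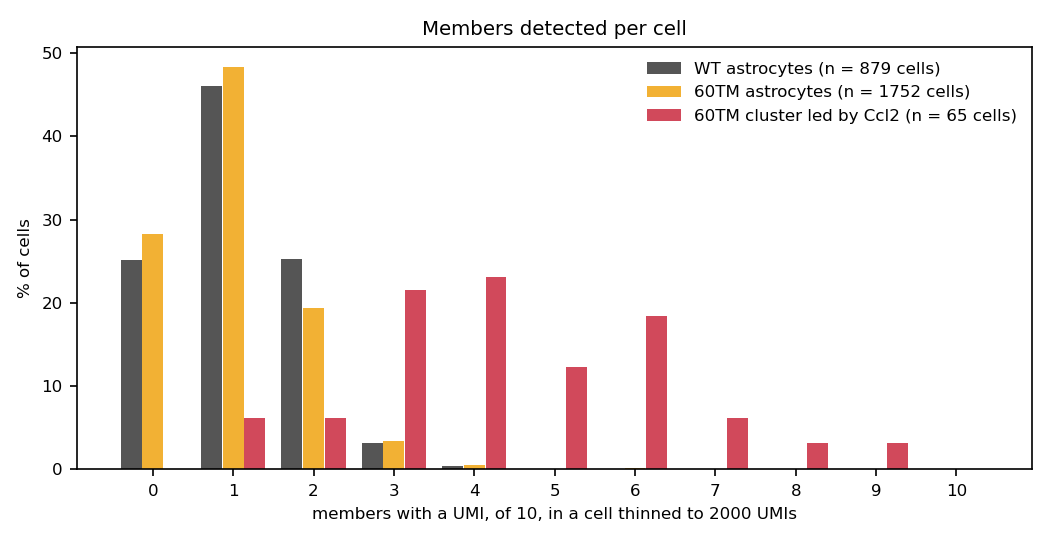
Percent of cells by the number of the 10 genes with a UMI, after thinning each cell to 2000 UMIs; grey bars are WT astrocytes, yellow bars 60TM astrocytes and red bars the 60TM Ccl2-led cluster. Both astrocyte groups sit mostly at 0 to 2, while 87.7% of the Ccl2-led cells have 3 or more.

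Pairs of genes were compared by the share of thinned 60TM astrocytes with the second gene among cells with and without the first, for 31 pairs whose first gene was seen in at least 20 cells. The share was higher with the first gene in 22 pairs, and the intervals were apart in 3. No count over other pairs of genes stands beside these counts and those below. They therefore cannot show if members are seen together more than other genes. Chac1 was seen in 4 of 131 cells with Atf4 (3.05%) and in 4 of 1621 without (0.247%). Trib3 was seen in 2 of 27 cells with Asns (7.41%) and in 2 of 1725 without (0.116%), and Atf5 in 6 of 27 (22.2%) against 82 of 1725 (4.75%). With the Ccl2-led cluster added, intervals were apart in 30 of 40 pairs. Mixing cells rich in members with cells poor in them can give such a count by itself. Within the cluster intervals were apart in 0 of 37 pairs, among 65 cells: Chac1 was seen in 24 of 34 cells with Atf4 and in 17 of 31 without.

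The 71 named 60TM astrocytes with 3 or more members were set beside the 495 with none. Lcn2 was seen in 26.8% (16.9 to 38.6) of the first and 15.6% (12.5 to 19.1) of the second, and Gfap in 78.9% and 69.1%. The largest differences in share among other genes were Rpl13a (73.2% and 44.4%), Vim (60.6% and 32.5%), Rps15a (78.9% and 51.5%), Rps12 (70.4% and 44%) and Id3 (76.1% and 50.1%). Of these 5, 3 encode ribosomal proteins, and Vim encodes vimentin, the filament partner of GFAP. Median depths before thinning were 7283 and 7329 UMIs.

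Upstream of Atf4, of 9 genes for eIF2 kinases, phosphatase subunits and their partners, 0 were 1.5-fold higher and 0 lower in named astrocytes. Among the kinase genes, Eif2ak2 (PKR), Eif2ak3 (PERK) and Eif2ak4 (GCN2) had ratios of 1.49, 0.852 and 0.91. Ppp1r15a (GADD34), the stress-induced phosphatase subunit that ends the response, had 1.42. In the Ccl2-led cluster over the named 60TM astrocytes, 5 of 9 were higher, led by Ppp1r15a at 293 against 17.7 CPM (16.5, 13.9 to 19.7). Here and for the lists that follow, the cluster's counts are to be read against shares of all genes, 38.3% higher and 19.7% lower. Counts in named astrocytes, 60TM over WT, are to be read against 9.3% of all genes higher and 10.1% lower. Of the kinase genes Eif2ak2 was among the 5, at 52.9 against 23.6 CPM (2.24, 1.61 to 3.06). Eif2ak3 was at 9.4 against 6.3 CPM (1.49, 0.626 to 3.06) and Eif2ak4 at 10.6 against 9.48 CPM (1.12, 0.5 to 2.18), from 8 and 9 UMIs in the cluster. Eif2ak1, the remaining kinase gene, was at 22.3 against 24.3 CPM (0.918, 0.546 to 1.45).

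Of 9 other ISR factors and effectors with 20 UMIs, 5 were higher in named 60TM astrocytes than in WT, among them the factor genes Cebpb (6.51, 4.86 to 8.9) and Atf3 (5.99, 2.46 to 19). Ddit4 had a ratio of 0.925 and Vldlr, a lipoprotein receptor, 0.732. In the Ccl2-led cluster over named 60TM astrocytes 9 of 9 were higher, with Atf3 at 304 against 5.04 CPM (60.4, 46.6 to 79.1), Nupr1 at 493 against 27.8 CPM and Eif4ebp1, a brake on translation, at 489 against 30.3 CPM. Fgf21, a stress hormone, had 13 UMIs in the cluster and 0 in the named astrocytes of both libraries.

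Genes for the supply of amino acids followed. Of 9 amino acid transporter genes 4 were higher in named astrocytes, led by Slc1a5 (15, 8.29 to 30.3) and Slc7a3 (4, 1.84 to 10.3), while Slc6a9, the glycine carrier, had 0.778 and Slc1a4 0.744. The Ccl2-led cluster had 8 of 9 higher than named 60TM astrocytes, with the cationic carrier Slc7a1 at 283 against 7.09 CPM (39.9), Slc38a2 at 584 against 32.5 CPM (18) and the cystine carrier Slc7a11 at 1857 against 552 CPM (3.37). Of 11 cytosolic tRNA synthetase genes 0 passed 1.5 in named astrocytes, with ratios from 0.858 (Aars) and 0.997 (Yars) to 1.35 (Lars) and 1.4 (Iars). In the cluster 11 of 11 were higher than in named 60TM astrocytes, from Wars at 3.38 to Gars at 10.3.

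The genes of serine, one-carbon and proline synthesis split. In named astrocytes 3 of 10 were higher and 1 lower, Cbs of the transsulfuration pathway, at 193 and 110 CPM (0.568, 0.527 to 0.613). Mthfd1l had 2 and 34 UMIs (6.7, 1.72 to 57.6), Pycr1 0 and 21 UMIs, and Cth a ratio of 0.942. Set beside named 60TM astrocytes, the Ccl2-led cluster had 8 of 10 higher and 1 lower (Cbs), with the mitochondrial folate enzyme Mthfd2 at 210 against 6.89 CPM (30.5) and the proline enzyme Aldh18a1 at 103 against 3.65 CPM (28.4). Psph, the enzyme of the last step of serine synthesis, was at 221 against 208 CPM (1.06, 0.913 to 1.23), close to the ratio of Phgdh.

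The unfolded protein response of the endoplasmic reticulum has further arms, through Atf6 and Xbp1. For comparison, 19 genes of these arms were measured, their targets together with Atf6, Xbp1 and Ern1 themselves. In named astrocytes 0 of 19 were higher and 0 lower. Calr and Xbp1 had ratios of 0.678 and 0.744, Pdia4 and Pdia3 1.32 and 1.28. In the Ccl2-led cluster over named 60TM astrocytes 6 of 19 were higher, beside 38.3% of all genes, and 6 lower, beside 19.7%. The median log2 ratio was -0.09 beside 0.16 over all genes. Atf6 itself was among the 6 higher (2.38, 1.65 to 3.35). Herpud1, of protein degradation in that compartment, was at 283 against 82.6 CPM (3.43, 2.97 to 3.94) and the chaperone Hspa5 (BiP) at 638 against 321 CPM (1.98, 1.81 to 2.17). The chaperones Calr and Hsp90b1 and the disulfide isomerase Pdia4 were lower, with ratios of 0.553, 0.625 and 0.553.

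Of 8 mitochondrial chaperone and protease genes 0 passed 1.5 in named astrocytes, with Clpx and Hspd1 at 1.24 and 1.23 and Dnaja3 and Clpp at 0.887 and 0.89. In the Ccl2-led cluster 4 of 8 were higher than in named 60TM astrocytes, near the 38.3% of all genes, led by Hspa9 (3.18) and Lonp1 (2.82). Of 9 p53 target genes 2 were higher in named astrocytes, Cdkn1a (3.16, 1.84 to 5.81) and Bbc3 (2.13, 1.22 to 3.98), while Sesn1 and Trp53inp1 had 0.774 and 0.684. In the cluster 8 of 9 were higher, with the cell cycle inhibitor Cdkn1a at 180 against 7.95 CPM (22.6), and Sesn1 was lower (0.401, 0.212 to 0.691).

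Immediate early and dissociation genes stood beside all of this. Of 14, 10 were higher in the Ccl2-led cluster than in named 60TM astrocytes, beside 38.3% of all genes, and their summed level was 5563 against 1909 CPM. Junb was at 1681 against 209 CPM and Ier3 at 750 against 107 CPM, while Fos was at 375 against 262 CPM (1.43) and Hspa1a at 7.05 against 6.63 CPM (1.06). In named astrocytes the genes with the largest and smallest ratios to WT were Ier3 (23.5) and Junb (14.1), and Hspa1b (2.13) and Jund (1.93). Their part in the levels of the members was not tested.

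**Figure D4:**
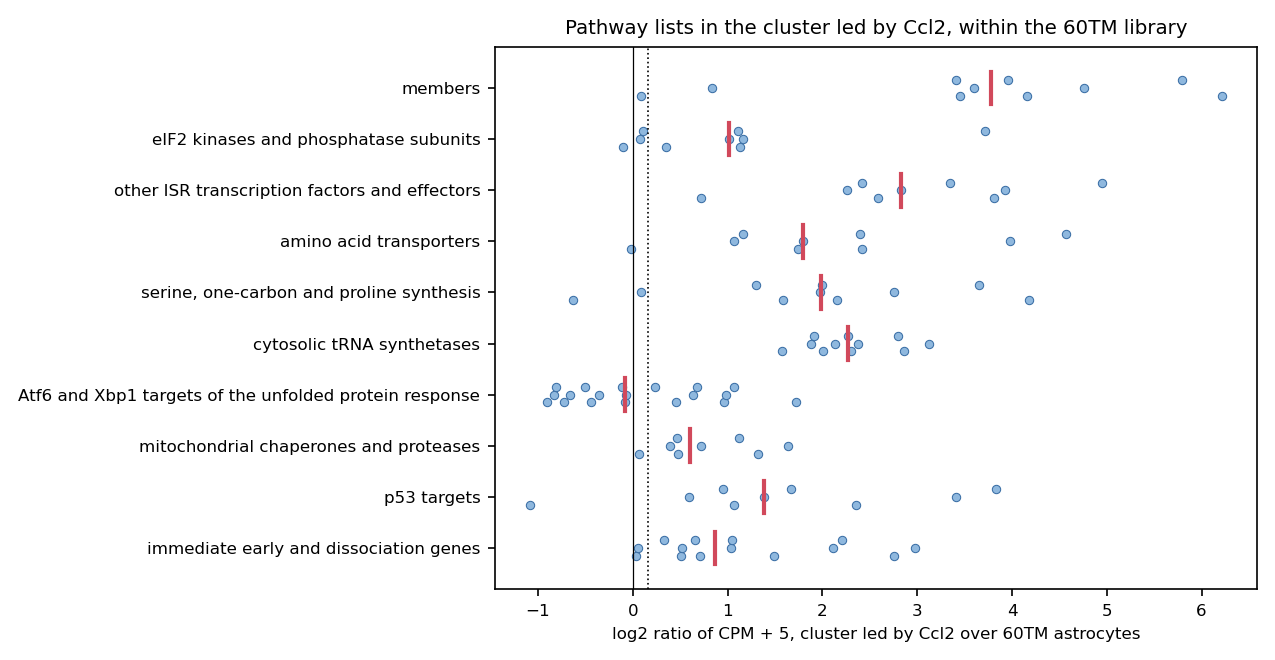
Log2 ratio of CPM + 5, the Ccl2-led cluster over named 60TM astrocytes, for each gene with at least 20 UMIs (points) of the 10 members and 9 pathway lists; red lines are list medians and the dotted line is the median of all genes (0.16). The tRNA synthetase and other ISR lists lie to the right of 0 in every gene, and the Atf6 and Xbp1 list lies on both sides.

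Across the 28 profiles of 14 classes in 2 libraries, which share libraries and depth, the members did not move as a block. The Ccl2-led cluster, where most members stood higher together, is not among these profiles. Over the 45 pairs Pearson's r of log2(CPM + 5) was highest for Psat1 with Phgdh (0.668) and for Chac1 with Asns (0.634). Chac1 had at most 9 UMIs in each profile but that of 60TM astrocytes, with 43, so its r rests on few counts. The same holds for Trib3, with at most 12 UMIs in a profile, and for Gdf15, with no UMIs in many profiles. Atf4 had an r of 0.185 with Ddit3 and 0.327 with Asns. The genes with the most similar profiles were Sec16a, Zc3h7a and Prpf38b for Atf4 (0.866, 0.853 and 0.85), Sox8, Erg28 and Cyp51 for Psat1 (0.897, 0.894 and 0.884) and Tkt, Ckb and Arhgef19 for Phgdh (0.858, 0.846 and 0.836). For Asns they were Cnot10, Slitrk5 and Ipo8 (0.858, 0.809 and 0.802), for Atf5 Zic2, Zic5 and Cchcr1 (0.816, 0.798 and 0.78), for Ddit3 Shld2, Mnt and Ypel3 (0.684, 0.681 and 0.679) and for Sesn2 Memo1, Fam217b and Kyat1 (0.634, 0.617 and 0.598).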

How the data were processed

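The deposited matrices hold raw UMI counts per gene and barcode, made by the authors with Cell Ranger 5.0.0 on GRCm38, per the file headers and the submitters' processing notes. Of the other deposited tables, those of genes and barcodes carry names without values. Nothing used here states if intronic reads were counted. Barcodes with under 500 genes or over 15% mitochondrial UMIs were removed, and so were the 377 WT and 610 60TM barcodes with the highest Scrublet scores. The libraries shared 20 barcodes, 14 after filtering. Cells were clustered with scanpy 1.11.5 (2000 variable genes, 30 components, resolution 1, 33 clusters, no integration). Clusters were named from 118 markers of 22 classes, with 3 markers needed; the pericyte cluster also carried fibroblast genes. Ratios of summed UMIs have exact conditional-binomial intervals, levels Poisson and shares Clopper-Pearson intervals. Calls need 20 UMIs and a ratio of 1.5. The calculation was tested on simulated data. One list gene was not found. The genes, lists and markers were chosen with earlier results of these data known. Genes named from the pathway lists are the 2 highest and 2 lowest ratios in astrocytes; those named in the Ccl2-led cluster, the AP-1 motif and the count without Atf4, Psat1 and Phgdh were chosen after their values were seen.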

Additional observations from a re-analysis of the deposited data

Results flagged for a closer look

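Ratios of 60TM to WT that pointed in opposite directions between classes, with intervals on either side of 1, are given for Ddit3 and Atf5. The list is not complete, as Phgdh and Asns had such ratios too. Phgdh was lower in 60TM astrocytes but higher in 60TM microglia, and Asns higher in 60TM astrocytes but lower in 60TM neurons. None of these differences was tested. Ddit3 had a ratio of 3.54 in pericytes and 0.64 in neurons. Atf5 had a ratio of 2.02 in astrocytes and 0.269 in neurons. Each rests on 1 library per genotype, and pericytes and neurons on few cells. The pericyte values leave out an unnamed cluster that met 6 pericyte markers.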

How the results depend on the processing

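No paired analysis was possible because each genotype has 1 library and no result comes from a test; for that reason no replicate could be left out. Without the Lcn2-led cluster of mostly 60TM cells, the 5 members higher in 60TM astrocytes (9.3% of all genes) became 2 (5.43% of all genes). The median log2 ratio (0.45) then became -0.0435 and the share of cells with 3 or more members 3.1%. With every cell thinned to 2000 UMIs the count was 3 of 7 genes, as fewer genes kept 20 UMIs, and the median 0.0042; the cause of the shifts was not tested. The share with 3 or more members, 4.05%, was 6.54% with each cell assigned by its highest marker score and 7.04% with unnamed clusters of highest astrocyte score added, both of which gave 7 members and medians of 1.20 and 1.32. The share was 12.2% when thinned to 4000 UMIs and 32.4% without thinning. Adding the Ccl2-led cluster, an alternative chosen after seeing the data, gave 7 members (11.9% of all genes), a median of 1.35 and a share of 7.04%. That cluster holds no WT cells, so these values follow from the pooling and test nothing. For the other alternatives no share of all genes is given, so their counts of members have no background to be read against. Across the other alternatives run (doublets, cell filter, variable genes, resolution, CPM base, minimum UMIs, fold and pseudocount, and the Aldh1a1-led cluster left out) the count stayed from 4 to 5 and the median from 0.33 to 0.75. With cells limited to 5% mitochondrial UMIs and the gene minimum set to 200, 1 member, Atf4, was lower (0.65), where otherwise 0 were. Ratios over 0 to 5 WT UMIs, those of Chac1, Trib3, Gdf15 and Asns, are limited by depth. In named astrocytes Chac1, Gdf15 and Asns also passed the filter of 20 UMIs only through 60TM.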
